A study of Mus musculus with 6 samples.

Results

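RUNX1 peaks were examined around 7 genes that hold the identity of the supporting cells of the gonad: Foxl2, Wnt4 and Rspo1 on the granulosa side, and Sox9, Sox8, Dmrt1 and Fgf9 on the Sertoli side. A peak belonged to a gene when its summit lay inside the gene body or within 50 kb of either end. In all, 41 of the 51515 peaks of 4 RUNX1 ChIP-seq lists (chromatin immunoprecipitation followed by sequencing) met this rule, in windows that together spanned 0.898 Mb. The granulosa cells came from CBA x C57BL/6 F1 mice 21 days old, and every group had received eCG (5 IU of equine chorionic gonadotropin, a hormone that makes follicles grow). The 0 h group holds 2 RUNX1 libraries of pre-ovulatory granulosa cells at 0 h after human chorionic gonadotropin (hCG). The 6 h group holds 2 RUNX1 libraries of peri-ovulatory granulosa cells, taken 6 h after 5 IU of hCG, which was given 46 h after eCG. The treatment text in the labels is identical for all samples and names a collection at 6 h. The 0 h group is known from its titles and its time-point label. Each time point has 1 pooled input library, and the labels do not say whether replicate libraries came from separate animals, so any p-value measures only the spread between these libraries.

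Granulosa cells are the somatic cells that line the ovarian follicle around its oocyte, and Sertoli cells are their counterpart in the testis. Both arise from one bipotential precursor of the fetal gonad, and each type is kept apart from the other by factors that oppose the other program. FOXL2 is a forkhead transcription factor that keeps adult granulosa cells from taking on Sertoli features, and in the mouse its loss in the adult ovary lets SOX9 appear. WNT4 is a secreted WNT ligand and RSPO1 a secreted protein that strengthens WNT signalling through beta-catenin, which favours the ovary. SOX9 and SOX8 are related SOX transcription factors of Sertoli cells, FGF9 is a secreted growth factor that sustains SOX9 in the fetal testis, and DMRT1 is a transcription factor that keeps adult Sertoli cells from taking on granulosa features. RUNX1 is a DNA-binding factor that is known to act beside FOXL2 in the fetal mouse ovary. A peak measures binding and not expression, so these lists cannot show whether a gene was on, and the labelled cell type could not be checked against its marker genes.

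The 250 bases before the annotated start were read for the 5 genes in the RefSeq promoter table on GRCm38.p6 (Foxl2, Wnt4, Rspo1, Sox8 and Fgf9). The following 4 are shown because they separate genes with a 6 h peak at the start from a gene without one. Each is written 5′ to 3′ on the strand of the gene, and capitals mark the bases inside a peak of 6 h replicate 2. No base of them was inside a 0 h peak.
Foxl2, chr9:98955357-98955606, plus strand: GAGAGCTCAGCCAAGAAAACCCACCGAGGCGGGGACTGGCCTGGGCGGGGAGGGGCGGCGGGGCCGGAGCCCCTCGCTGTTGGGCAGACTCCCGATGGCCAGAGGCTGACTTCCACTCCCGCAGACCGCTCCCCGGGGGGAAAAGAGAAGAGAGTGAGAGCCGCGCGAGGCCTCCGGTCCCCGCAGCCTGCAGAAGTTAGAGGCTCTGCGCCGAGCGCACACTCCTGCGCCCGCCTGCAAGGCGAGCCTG
Sox8, chr17:25570687-25570936, minus strand: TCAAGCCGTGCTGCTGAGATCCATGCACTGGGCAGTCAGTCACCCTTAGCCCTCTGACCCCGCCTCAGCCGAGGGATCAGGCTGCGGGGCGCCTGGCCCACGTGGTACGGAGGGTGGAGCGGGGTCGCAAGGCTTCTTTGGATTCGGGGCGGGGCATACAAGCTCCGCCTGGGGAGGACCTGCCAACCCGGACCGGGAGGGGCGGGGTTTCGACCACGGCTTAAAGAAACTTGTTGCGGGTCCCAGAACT
Wnt4, chr4:137277385-137277634, plus strand: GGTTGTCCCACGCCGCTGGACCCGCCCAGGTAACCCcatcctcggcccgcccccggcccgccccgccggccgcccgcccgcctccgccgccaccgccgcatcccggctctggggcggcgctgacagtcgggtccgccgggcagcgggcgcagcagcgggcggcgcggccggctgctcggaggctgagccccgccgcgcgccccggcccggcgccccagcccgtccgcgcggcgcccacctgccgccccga
Rspo1, chr4:124986180-124986429, plus strand: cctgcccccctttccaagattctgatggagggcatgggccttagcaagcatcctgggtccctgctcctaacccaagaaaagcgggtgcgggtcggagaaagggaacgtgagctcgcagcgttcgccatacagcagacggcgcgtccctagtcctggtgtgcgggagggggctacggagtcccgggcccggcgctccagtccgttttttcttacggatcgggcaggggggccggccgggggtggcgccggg
All 250 bases of Foxl2 and of Sox8 also lay inside a peak of 6 h replicate 1. For Wnt4 the peak of replicate 2 took in 36 of the bases, and replicate 1 had no peak over them. For Rspo1 neither 6 h list had a peak there. The start used for these bases lies inside the gene body used for the windows in Rspo1 (124986430, body from 124986401) and Fgf9 (58072686, body from 58070671).

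These stretches were searched on both strands for the RUNX hexamers TGTGGT and TGCGGT and for the forkhead heptamer TGTTTAC. None of the 3 was found in the 250 bases of any of the 5 genes. The hexamers differ at their middle and so cannot match the same bases on one strand. Over all 32851 promoters of this length in the table, 18.6% held at least 1 of the 2 hexamers and 3.17% held the heptamer. Among the 8610 that overlapped a replicated 6 h region the shares were 19.4% and 1.96%. The 2 hexamers went opposite ways. TGTGGT was in 14.0% of all promoters and 10.1% of the 8610, and TGCGGT was in 5.1% and 10.1%. A replicated region is the joined span of peaks that were called in replicate 1 and in replicate 2 of the same time point and share at least 1 bp. The base composition was 70.8% G or C in Foxl2, 65.6% in Sox8, 85.2% in Wnt4, 66.8% in Rspo1 and 44.8% in Fgf9. The same search was made at the starts of the 7 other genes in the table that lay under a replicated 6 h region of the windows. The starts of Faim and Cerox1 held 1 TGCGGT each, and those of Foxl2os, Cdca8, 9930104L06Rik, Gm33801 and Lmf1 held none of the 3 motifs. The letters under peaks away from gene starts were not read. Nor were those at the start-peak summits inside Foxl2, 306 and 421 bp past the start, and inside Wnt4, 402 and 478 bp past it. The Sox8 summit of 6 h replicate 2, 396 bp inside the gene, also lay outside the bases searched. The search thus cannot show whether these start peaks lack the motifs.

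The lists differ greatly in length, which sets the level against which any gene is read. At 0 h there were 948 and 3135 peaks, and at 6 h 18761 and 28671. Of 21887 protein-coding genes, 9.43% and 28.2% had a peak in the same kind of window in the 0 h lists, and 69.3% and 76.1% did after hCG (replicates 1 and 2 in this order here and below). The depth recovered from the deposited fold and p-values was much closer, with a genome-wide background of 2.77 and 2.65 reads per position in the 0 h libraries and of 2.76 and 2.13 in the others.

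At 0 h only Foxl2 had a peak in both libraries, and Wnt4 had a peak in 1 of them. At 6 h all 7 genes had a peak in replicate 2 and all but Fgf9 had one in replicate 1. Summed over the windows there was 1 peak in 0 h replicate 1, 2 in 0 h replicate 2, 17 in 6 h replicate 1 and 21 in 6 h replicate 2, which is 1.11, 2.23, 18.9 and 23.4 peaks per Mb. Windows of all protein-coding genes held 0.769, 2.81, 15.9 and 21.9 peaks per Mb in the same order, and the whole chromosomes 0.348, 1.15, 6.89 and 10.5. The windows of the 7 genes thus held peaks at densities not far from those of coding genes in general.

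Counted by gene, a replicated region was found for 1 of the 7 at 0 h, against 8.76% of protein-coding genes, and for 6 of the 7 at 6 h, against 68.9%. Foxl2 was the only one with a region at both time points, against 8.72% of protein-coding genes. At 6 h, 4 of the 7 (Foxl2, Sox8, Wnt4 and Sox9) had 2 or more regions, against 50.5%, and 3 of the 7 (Foxl2, Wnt4 and Sox8) had the summit of one inside the gene body, against 35.4%. At 0 h none had one inside the body, against 2.07%. The number of peaks was higher in each 6 h list than in either 0 h list for 6 of the 7 genes, and this held for 64.7% of protein-coding genes. None of the 7 had fewer peaks in each 6 h list than in either 0 h list, against 0.00457% of protein-coding genes. The difference in mean number of peaks between 6 h and 0 h was 5 for Foxl2, 4.5 for Sox8, 2 each for Wnt4, Sox9 and Fgf9, and 1 each for Rspo1 and Dmrt1. These sizes depended on the window and the threshold. The difference for Foxl2 was 3 within 10 kb and also 3 when −log10 q had to reach 20, and for Sox8 it was 2.5 within 10 kb. Within 100 kb it was 7 for Wnt4, 4.5 for Rspo1, 3.5 for Dmrt1 and 3 for Sox9. With 2 libraries against 2 the exact two-sided permutation test cannot go below p = 0.333, which 6 of the 7 genes reached. Fgf9 had p = 1 in this exact test, because its peaks came from 1 library. After Benjamini-Hochberg adjustment over 21887 genes the 6 genes had an adjusted p of 0.515 in the permutation test, so no gene could pass 0.05. When each list was cut to its 948 peaks with the lowest p-values, no 6 h peak was left in any of the windows. That number is the full length of the 0 h replicate 1 list, so its peak at Foxl2 could not be lost, and the peak at Foxl2 in 0 h replicate 2 was kept.

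**Figure D1:**
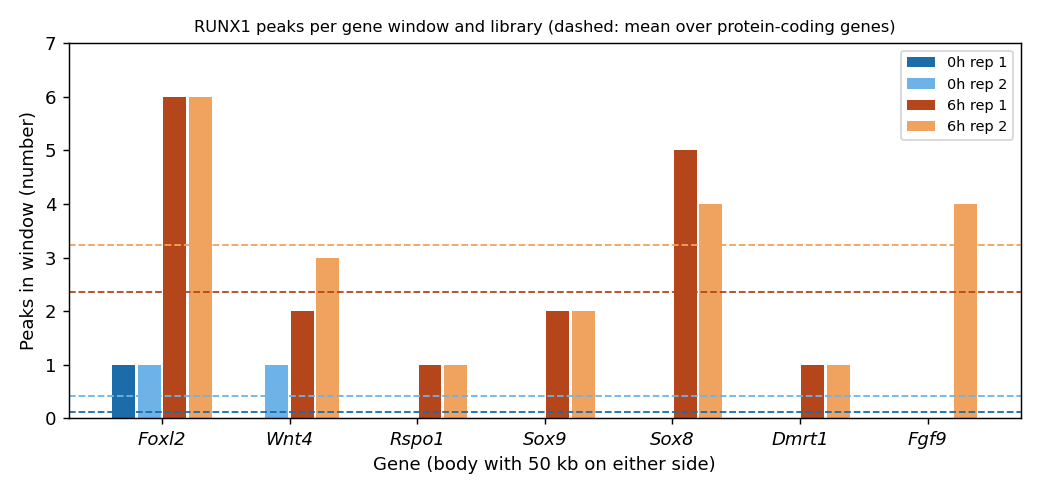
Number of RUNX1 peaks (vertical axis) in the window of each gene (horizontal axis), 1 bar per library, with no bar where the count is 0. Dashed lines give the mean over protein-coding genes in the library of the same colour, 0.114 and 0.415 at 0 h and 2.35 and 3.24 at 6 h. Foxl2 and Sox8 stand above these lines in all of the 6 h bars, and Rspo1, Sox9 and Dmrt1 stand below them.

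Foxl2 had the largest mean number of peaks of the 7 genes at 6 h within 50 kb. Within 100 kb Wnt4 had 8 and 10 peaks against 6 and 6 for Foxl2, and when −log10 q had to reach 20 Sox8 had 4 and 4 against 3 and 5. Foxl2 lies on chromosome 9 at 98955607 to 98958126 (GRCm38, 2.52 kb) and the window also holds the antisense RNA Foxl2os and the coding genes Faim, Gm33778 and Gm1123. The 0 h lists had 1 peak each and the 6 h lists 6 each, which placed Foxl2 at percentile 87.0 of protein-coding genes in mean peak number at 6 h. After merging, 5 replicated regions remained at 6 h and 1 at 0 h.

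The region bound at both time points lay beyond the far end of Foxl2, between the gene and Faim, and outside any annotated gene. It spanned 98965018 to 98965348 over the 4 lists, and all 4 summits fell within 48 bp of each other, 7055 to 7103 bp past the gene. Fold enrichment over local background was 8.56 and 7.66 before hCG, and 12.4 and 14.6 after it. The ranks by fold within the lists were percentiles 63.0, 56.6, 76.2 and 70.5, so the site was above the median of every list and near the top of none. Fold values are those of the authors, and they are scaled within each library only.

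The read pileup at this summit, recovered from fold and p-value, counted 57 and 49 reads before hCG, then 81 and 86 after it. Divided by the genome-wide background of each library it came to 20.6 and 18.5 at 0 h, a mean of 19.5 ± 1.48 (SD, n = 2), and 29.3 and 40.4 at 6 h, a mean of 34.9 ± 7.80 (SD, n = 2). Both 6 h values were above both 0 h values, by a ratio of means of 1.78 (exact permutation test, two-sided, p = 0.333, the smallest possible). Over the 659 sites called in all 4 lists the median ratio was 3.31, and the Foxl2 site was at percentile 16.3 of them. At 0 h it lay above the median of those sites, 13.4 and 16.6 in replicates 1 and 2, and at 6 h below it, 40.6 and 66.7. Leaving out 1 library at a time, the lowest ratio was 1.5 (6 h replicate 2 left out) and the highest 2.07 (6 h replicate 1 left out), and the median over the sites from 2.52 to 4.16.

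The start of Foxl2 had a listed peak in both 6 h libraries and in neither 0 h library. A region at 98954788 to 98956273 took in the promoter bases printed above and the neighbouring start of Foxl2os. Its highest summits lay 306 and 421 bp inside Foxl2, with a fold of 13.0 and 10.7 and a pileup of 54 and 43 reads in replicates 1 and 2. Replicate 1 also listed a separate peak 693 bp before the Foxl2 start, inside Foxl2os, with a fold of 5.81. Because peaks carry no strand, binding at the start of Foxl2 and at the start of its antisense partner cannot be told apart.

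Inside the Foxl2 gene, the fold of a further region at 98956689 to 98957428 was 13.6 and 11.7 at 6 h, with summits 25 bp apart. In replicate 1 it was the highest-ranking peak of the window, at percentile 80.8, and in replicate 2 it was at percentile 56.6. Replicate 2 alone had a peak at 98956398 to 98956625 with a fold of 10.6. The remaining regions lay past the gene. The fold of the nearer, at 98973195 to 98973484, was 7.71 and 8.30, with a pileup of 28 and 25 reads. The other, at 98985931 to 98986860, had its summits 22 and 161 bp from an end of Faim, a gene for an inhibitor of apoptosis signalling, with a fold of 6.19 and 9.73.

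**Figure D2:**
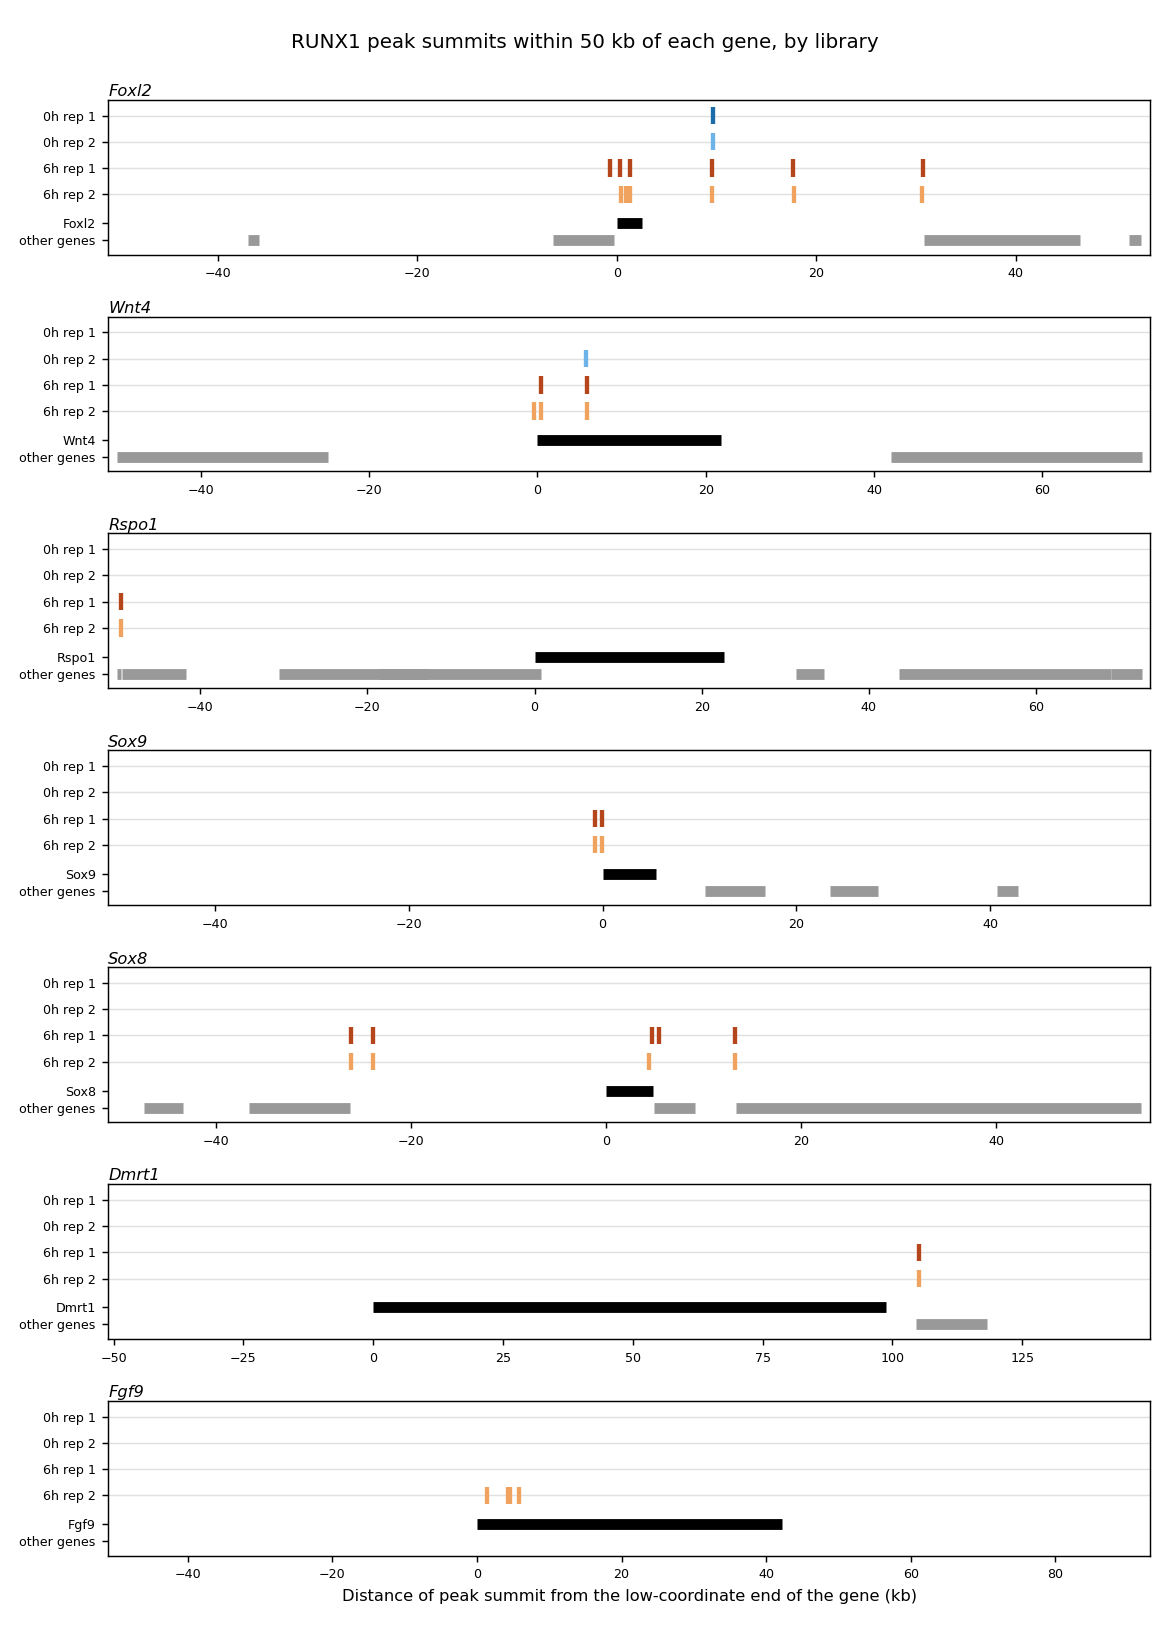
Position of every RUNX1 peak summit in the 7 windows, as distance in kb from the low-coordinate end of each gene (horizontal axis), with 1 row per library, the gene in black and other protein-coding or long non-coding genes in grey. Summits of the 6 h libraries line up in pairs at 6 genes, Foxl2 alone has a tick in both 0 h rows, and Fgf9 has ticks in 6 h replicate 2 only.

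Wnt4, on chromosome 4 at 137277635 to 137299501, was the other gene with a peak at 0 h. Its window held no peak in 0 h replicate 1, 1 in 0 h replicate 2, and 2 and 3 after hCG. The 0 h peak lay inside the gene, 5790 bp from its start, at 137283336 to 137283535, with a fold of 6.28 and a rank at percentile 26.9 of 0 h replicate 2. Both 6 h lists had a peak over it, with a fold of 6.53 and 9.76, at percentiles 23.5 and 42.9. Pileup over genome-wide background was 10.2 in 0 h replicate 2 against 10.9 and 17.4 at 6 h, so the lower 6 h value was close to the 0 h one. No interval can be given for 0 h replicate 1, which lists no peak there.

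At the start of Wnt4, both 6 h lists had a peak at 137277727 to 137278293, with summits 402 and 478 bp inside the gene. Its fold was 8.71 and 12.9, at percentiles 50.9 and 63.0. Replicate 2 had an added peak with its summit 353 bp before the start, the one that overlaps the promoter bases in capitals, with a fold of 10.9. None of these start peaks had a 0 h counterpart.

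Rspo1 had no RUNX1 peak in its gene body or at its start in any of the 4 lists. The gene lies on chromosome 4 at 124986401 to 125009102. The only region in its window was at 124936519 to 124937139, with both 6 h summits 49454 bp from Rspo1 and 30 bp from an end of Cdca8, which encodes a subunit of the chromosomal passenger complex of dividing cells. It also took in the start of 9930104L06Rik. Its fold was 6.81 and 8.27, at percentiles 27.4 and 27.8, on a local background of 10.4 and 8.07 reads, the highest of the peaks in the 7 windows in either 6 h list. It lay just inside the limit of 50 kb, and the nearest 6 h summits outside were 57932 and 57579 bp from Rspo1. With a window of 10 kb, Rspo1 had no peak at all. The nearest 0 h peaks were 1268263 and 1247337 bp away.

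Sox9, on chromosome 11 at 112782210 to 112787757, had 2 peaks in each 6 h list and none at 0 h. Both replicated regions sat at the low-coordinate end of the gene and all of their summits were outside its body. The first, at 112782006 to 112782638, crossed that end into the gene, with summits 14 and 28 bp before it and a fold of 5.15 and 8.46. The second, at 112780952 to 112781702, had summits 765 and 735 bp before it and a fold of 4.87 and 7.74. The ranks by fold were percentiles 8.31 and 30.2 for the first region and 6.06 and 22.6 for the second. With a −log10 q of at least 20, replicate 1 kept neither peak and replicate 2 kept both. No protein-coding gene other than Sox9 lay in the window, so within 50 kb there was no other coding gene to which these regions could belong.

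Sox8, on chromosome 17 at 25565893 to 25570686 on the minus strand, had 5 and 4 peaks in the 6 h lists and none at 0 h. One replicated region, at 25570120 to 25571419, covered its start and the adjoining start of the long non-coding RNA Cerox1. Its peaks over the Sox8 start had summits 61 and 396 bp inside Sox8, with a fold of 6.32 in replicate 1 and 8.68 in replicate 2. Replicate 1 had another peak 636 bp before the Sox8 start, inside Cerox1, with a fold of 6.65, so its top summit in the region by fold was that of Cerox1. The Sox8 and Cerox1 starts cannot be told apart here.

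A pair of sites lay past the far end of Sox8, and 1 of them had the highest fold of all 7 windows in both 6 h lists. For the region at 25541453 to 25542442 the fold was 14.1 and 29.1, with summits 5 bp apart. Its pileup was 70 and 115 reads, and the replicate 1 value was below the 81 reads of the Foxl2 site shared with 0 h. Its ranks were percentiles 82.4 and 93.5, and the latter was the only one of the 38 peaks at 6 h above percentile 90. A neighbour at 25539502 to 25540098 reached 11 and 22.9 in fold, which were percentiles 69.1 and 88.6. Their summits were 23889 and 23884 bp, and 26166 and 26167 bp, from the Sox8 body, and the neighbour was 33 and 32 bp from an end of the long non-coding RNA Gm33801. The last region, at 25578978 to 25579401, had its summits 50 and 36 bp from an end of Lmf1, a lipase maturation factor gene, with a fold of 9.36 and 15.

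Dmrt1, on chromosome 19 at 25505618 to 25604328, had no peak in its 98.7 kb body in any list. The one region in its window, at 25610568 to 25611125, lay inside the neighbouring gene Dmrt3, which encodes another DMRT transcription factor, with summits 431 and 450 bp from the end of Dmrt3 that faces Dmrt1. It was called in both 6 h lists, with a fold of 9.04 and 9.58, a pileup of 33 and 29 reads and ranks at percentiles 54.6 and 41.2. The summits were 6349 and 6368 bp from Dmrt1. The nearest 0 h peak was 1028035 bp away.

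Fgf9, on chromosome 14 at 58070671 to 58112854, had peaks in a single library. The summit nearest the low-coordinate end, at 58072047, lay before the Fgf9 start used for the promoter bases, 58072686. Replicate 2 at 6 h had 4 peaks inside the gene body, and the other 3 lists had none in the window. They lay 1376, 4263, 4625 and 5757 bp from the low-coordinate end, with a fold of 9.58, 8.30, 7.31 and 6.06 and ranks at percentiles 41.2, 28.6, 18.3 and 7.60. Their pileups were 29, 25, 29 and 18 reads, and the smallest pileup of any listed peak was 19 reads in replicate 1 and 17 in replicate 2. With a −log10 q of at least 20 only 1 of the 4 was kept. Of protein-coding genes, 6.99% had the same pattern of peaks in 1 of the 6 h lists and none at 0 h.

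The 15 replicated 6 h regions of the windows were compared with all 17190 such regions. Of the 15, 2 overlapped a 0 h peak, or 13.3% (exact Clopper-Pearson 95% CI 1.66 to 40.5, which covers counting error only), against 16.5% of all. Without 0 h replicate 2, which alone held the Wnt4 peak, the share was 6.67%. Of these 2, the Foxl2 region alone overlapped a replicated 0 h region, and 4.6% of all 6 h regions did. Their median width was 621 bp against 611 bp. A promoter stretch of the table lay under 6 of the 15, or 40.0%, against 37.7% of all. Sox9 and Dmrt1 have no promoter entry there, so the Sox9 region that crosses an end of the gene could not count among the 6. The interval on the share over a 0 h peak is wide at this number of regions.

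By rank, 22 of the 38 peaks at 6 h were below the median fold of their own list, and they ran from percentile 6.06 to 82.4 in replicate 1 and from 7.60 to 93.5 in replicate 2. The medians were 39.5 and 42.1. The plot of ranks by fold shows the members apart from each other: Sox8 and Foxl2 spread over most of the scale, and Sox9, Rspo1 and Fgf9 stayed below the median. By p-value the Rspo1 peaks were above it, at percentiles 64.4 and 61.3 of the 6 h lists, with a pileup of 77 and 74 reads. Those of Sox9 and Fgf9 stayed below the median by p-value as well.

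**Figure D3:**
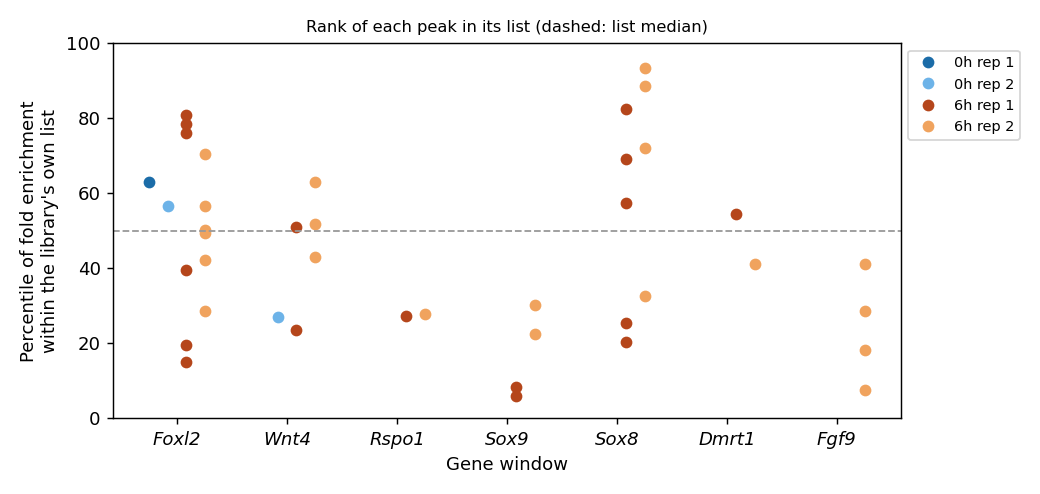
Percentile of fold enrichment of each peak within its own library's list (vertical axis) for the 7 gene windows (horizontal axis), 1 point per peak, with the list median as a dashed line. The highest point is Sox8 in 6 h replicate 2 at 93.5 and the lowest is Sox9 in 6 h replicate 1 at 6.06.

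Depth was set beside the absence of 0 h peaks at 6 h sites. The 34 peaks of the 6 h lists at sites without a 0 h peak had a pileup that, at the same ratio to the genome-wide background, corresponds to 23.4 to 150 reads in 0 h replicate 1 and 22.4 to 143 reads in 0 h replicate 2. The smallest pileup of any listed peak was 20 and 19 reads in these libraries, so at an equal ratio all 34 would be above it in both. These 34 were taken from the 6 h lists, where the smallest listed pileup was 19 and 17 reads on backgrounds of 2.76 and 2.13. Passing at an equal ratio was thus nearly fixed beforehand, and it does not test the effect of depth. At the 659 sites listed in all 4 libraries the ratio at 6 h was 3.31 times that at 0 h at the median. With the ratio lowered by that much at 0 h, the median came to 14.9 and 14.3 reads and 8 of the 34 stayed at or above the smallest listed pileup in each library. Those 659 sites are ones listed at 0 h, and the ratio at sites without a 0 h peak was not measured. The local background at these sites at 0 h is not in the lists, and whether each would have passed the caller was not tested.

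**Figure D4:**
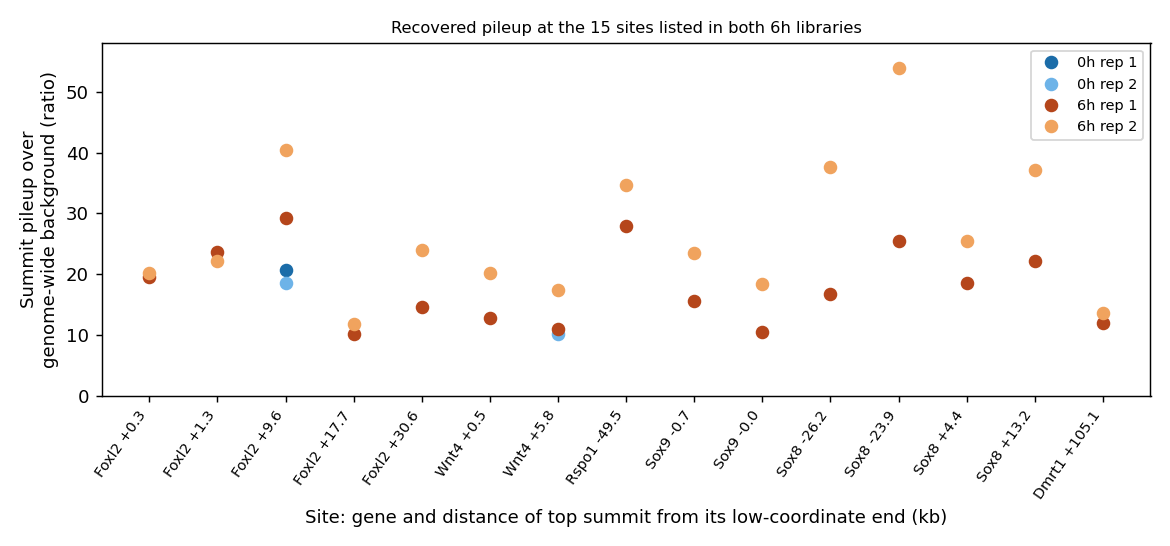
Recovered read pileup at the summit divided by the genome-wide background of the library (vertical axis) at the 15 sites listed in both 6 h libraries (horizontal axis, with the distance of the top summit from the low-coordinate end of the gene in kb). Missing points are sites without a peak in that list. The Foxl2 site bound at both time points has 20.6 and 18.5 at 0 h and 29.3 and 40.4 at 6 h, and the 0 h point of Wnt4 lies next to that of 6 h replicate 1.

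Other genes of the same pathways were taken as lists, of which 15 belong to the ovarian supporting cells and 25 to the testis supporting cells or the bipotential gonad. In the ovarian list a replicated region lay within 50 kb of 2 genes at 0 h, or 13.3%, and of 14 at 6 h, or 93.3%, beside 8.76% and 68.9% of protein-coding genes. In the testis list the counts were 5 of 25, or 20%, at 0 h and 21 of 25, or 84.0%, at 6 h. The list includes Sry, which lies on the Y chromosome that female cells lack and could have no region here, and without it the shares were 20.8% and 87.5% of 24 genes. More peaks in each 6 h list than in either 0 h list were found for 13 of the 15 and 18 of the 25 genes, beside 64.7% of protein-coding genes, and none had fewer, beside 0.00457%. The median of the mean peak number at 6 h was 5.5 in the ovarian list, 2 in the testis list and 2 over protein-coding genes. Windows grow with gene length, whose median over protein-coding genes was 17.2 kb. The ovarian list holds far longer genes, such as Esr1 and Runx1, and shorter ones, such as Inha. No adjustment for length was made in these comparisons.

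In the ovarian list the 2 genes with a region at both time points were Runx1 itself, with 3 regions at 0 h and 10 at 6 h, and Inha, the alpha subunit of inhibin, with 1 and 7. By mean percentile of the top peak at 6 h, the genes with a replicated region at 6 h and none at 0 h were led by Znrf3, a ubiquitin ligase that removes WNT receptors and is itself opposed by RSPO1. The top peak of Znrf3 was at percentiles 99.5 and 99.6 of the 6 h lists. It was followed by Fst, the activin-binding follistatin, at 99.2 and 99.4. Next was Axin2, a feedback inhibitor of WNT signalling, at 97.6 and 98.5. Ctnnb1, which encodes beta-catenin, had 90.4 and 96.1, and Lgr4, a receptor for R-spondins, had 83.7 and 94.2. Of these, Znrf3, Fst and Axin2 also had 1 peak in 0 h replicate 2, at percentiles 72.4, 75.3 and 37.6, and Ctnnb1 and Lgr4 had none at 0 h. At the other end of the list, Bmp2 had no replicated region, no peak in 6 h replicate 1 and a top peak at percentile 34.5 in 6 h replicate 2.

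Of the testis list, a region at 0 h was found near Amh, Dhh, Wt1, Gata4 and Gadd45g. Gata4, a zinc-finger factor of both supporting cell types, had 2 regions at 0 h and 7 at 6 h. Its top peaks were at percentiles 98.7 and 99.7 of the 0 h lists, and lower, at 86.5 and 90.7, in the 6 h lists. Amh, the anti-Müllerian hormone gene, which granulosa cells also express, had 1 region at 0 h and 8 at 6 h. Dhh, which encodes the hedgehog ligand of Sertoli cells, had 1 and 5. Wt1, a factor of the early gonad, had 1 and 3, and Gadd45g, which acts before Sry in the fetal testis, had 1 and 3. The genes with a replicated region at 6 h and none at 0 h were led by Cbx2, Nr5a1, Zfpm2, Aard and Etv5, whose top peaks lay between percentiles 84.4 and 90.2 of the 6 h lists. In single 0 h lists, Cbx2 had 2 peaks in replicate 2, the higher at percentile 21, Nr5a1 had 1 in replicate 1 at 56.3, and Etv5 had 1 in replicate 2 at 62. Nr0b1 and Rhox5 had no peak in any of the 4 lists, and Cldn11 had peaks in 6 h replicate 2 only.

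Protein-coding genes were ranked by how near the percentile of their top peak in the 4 lists was to that of a member, with 0 where there was no peak. This was done for Foxl2 and Wnt4, the members with a peak in at least 3 lists. Nearest to Foxl2, whose values were 63.0, 56.6, 80.8 and 70.5, was Fuz with 60.0, 50.4, 84.2 and 69.1, then Med25 with 60.0, 50.4, 84.2 and 79.3. Fuz and Med25 had equal values in all lists but 6 h replicate 2. Whether their windows take in the same peaks was not tested, so they may not be separate sites. Nearest to Wnt4, with 0, 26.9, 50.9 and 63.0, were Ivns1abp with 0, 26.9, 53.1 and 65.0 and Eif3b with 0, 25.3, 49.8 and 65.6. A peak in all 4 lists, as for Foxl2, was found for 1960 protein-coding genes, or 8.96%, and the pattern of Wnt4 for 4189, or 19.1%.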

How the data were processed

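The members and gene lists were chosen with earlier results of these data known. Per the labels, the RUNX1 ChIP-seq and input libraries were sequenced from one end with reads of 75 nt. Bowtie2 2.2.5, MACS2 and build mm10 are named in the submitters' processing notes, and settings are not given in the sources used here. The authors deposited 1 peak list per ChIP library, each called against an input, per the names in the files. Each deposited list gives the fold enrichment (a ratio of ChIP to local background), −log10 p and −log10 q, and the offset of the summit. Positions are counted from 1, and genes are those of NCBI RefSeq on GRCm38.p6, the assembly of mm10. This table has no exons. All 7 members matched by symbol, and strand came from the promoter table for 5 of them.

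Peaks were assigned by summit with Python 3.11.15, pandas 2.3.3 and scipy 1.17.1. Pileup and background were solved from fold and −log10 p as MACS2 defines them, with a misfit of at most 0.005, which succeeded for 99.13% to 100% of peaks per list and for all peaks named here. The commonest background of a list was taken as its genome-wide background. The 2 inputs were not analysed apart from the calls. Scripts were tested on simulated peak lists. Named genes were all members, list genes with a replicated region at 0 h, up to 5 per list by mean top percentile among those at 6 h only, and the 2 nearest genes in the ranking by pattern. Sry, Bmp2, Nr0b1, Rhox5 and Cldn11 were named after their values were seen, as the list genes with no replicated region. Alternatives were the distance, the −log10 q, equal list lengths, the overlap rule, each library left out and a replicate block.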

Additional observations from a re-analysis of the deposited data

How the results depend on the processing

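The count of 1 member with a replicated region at 0 h became 2 with a window of 100 kb, where Wnt4 was added, and ran from 1 to 2 when 1 library was left out. The higher value came without 0 h replicate 1, where the single-library peak of Wnt4 counted. The 6 members with a region at 6 h, and the 6 with more peaks in each 6 h list, both became 0 with an equal number of 948 peaks per library and ran from 6 to 7 without 1 library. Both were 5 within 10 kb, where Rspo1 was lost, 5 when −log10 q had to reach 20, where Sox9 was lost, and 7 within 100 kb, where Fgf9 was added. The equal number keeps 5.05% and 3.31% of the 6 h lists and none of their peaks in these windows. It also turned the Foxl2 difference from 5 peaks to -1 and the difference in density between 6 h and 0 h from 19.5 to -1.11 peaks per Mb. The density difference was 13.9 with a −log10 q of at least 20, 36.9 with a window of 10 kb, and 17.3 to 21.7 without 1 library. The difference was 0 for Rspo1 within 10 kb, and 1 for Sox9 and 0.5 for Fgf9 with a −log10 q of at least 20. The Fgf9 difference of 2 became 0 without 6 h replicate 2 and 4 without 6 h replicate 1. The pileup ratio at the Foxl2 site and its values without each library, and the whole estimate of 0 h reads at 6 h sites, were added after the data were seen. The share of 6 h regions over a 0 h peak ran from 6.67% (without 0 h replicate 2) to 20% (window of 10 kb) over the alternatives that left any region.

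Replicate numbers are shared by the time points, but the labels do not say that they pair libraries. Over 21887 genes the differences between replicates 1 and 2 at 0 h and at 6 h had a correlation of 0.117. With the replicate block the count of members with more peaks at 6 h was 6, and the exact sign-flip test cannot go below p = 0.5.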

Other observations

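Beyond 50 kb, Sox9 sits in a gene desert that reaches 1056 kb to Gm11677 on its low-coordinate side and 457.1 kb to Slc39a11 on the other. The rest of this desert, 1.41 Mb outside the window, held no peak in either 0 h list and 3 and 4 peaks in 6 h replicates 1 and 2. These are 2.12 and 2.83 peaks per Mb, against 6.89 and 10.5 over whole chromosomes. All 3 sites found in both 6 h lists were on the side of Slc39a11, at 62.97, 275.6 and 414.1 kb from Sox9. The fold of the farthest, on chromosome 11 at 113201695 to 113201999, was 11.4 and 13.6, which is above that of either region at the Sox9 end. The nearest, at 112850574 to 112851004, had a fold of 6.38 and 16.3.

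On the other side a single peak was listed, by 6 h replicate 2, at 112219034 to 112219279, with its summit 563 kb from Sox9, a fold of 9.47 and a pileup of 32 reads. A distal testis enhancer of Sox9, known as Enh13, also lies far out on this side. Its coordinates were not used here, and whether the peak touches it was not tested.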
